A study of Mus musculus with 10 samples.

Results

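Keratins are the intermediate filament proteins of epithelial cells, and the mouse uterus was searched for all of them. Members were the protein-coding genes of the deposited table whose symbol is Krt followed by a number, with or without a or b, which gave 42 of 29268 genes. The data were RNA-seq of whole uterus at the age of 4 months from 5 HSD17B1TG and 5 WT mice, with 1 library per mouse. HSD17B1TG mice are heterozygous FVB/N females whose transgene is human *HSD17B1*, the enzyme that converts estrone to estradiol. Its promoter, chicken beta actin with a CMV enhancer, is active throughout the body, so expression is not restricted to the uterus, and the transgene came from the father. WT mice lack the transgene, and no further allele or treatment is named for either group. The study's methods describe HSD17B1TG females as not cycling and, in the account of the histology, WT uteri as taken at random phases of the cycle, so genotype and cycle phase cannot be told apart here. Mice are called TG1 to TG5 and WT1 to WT5, and these numbers pair no mice. Nothing in the labels says how many litters or founder lines the mice came from.

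A keratin filament is built from pairs of an acidic type I chain and a basic type II chain, and most cells that make one chain of a pair also make the other. Simple epithelia such as the uterine lining and glands are known for *Krt8*, *Krt18*, *Krt19* and *Krt7*, stratified epithelia keep *Krt5* and *Krt14* in the basal layer and switch to *Krt1* and *Krt10* in skin or to *Krt4* and *Krt13* in internal linings, and a separate set serves hair and nail. In rodents, prolonged estrogen exposure is known to turn parts of the uterine lining squamous, so the stratified keratins were examined beside the simple ones.

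Of the 42 keratins, 19 are type I and 23 type II. In the GRCm38 coordinates of the table, 18 lie on chromosome 11 and 24 on chromosome 15, since *Krt18*, a type I gene, sits beside *Krt8* on chromosome 15. Levels are given in FPKM, fragments scaled to gene length and library depth, which can be compared between genes. The count filter of edgeR passed 19 members, and 16 of these had a mean over 1 FPKM in at least 1 group. The 23 members that did not pass reached at most 1.20 FPKM (*Krt25* in TG5), and 21 of them stayed under 1 FPKM in every mouse.

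Keratins of simple epithelium dominated in both groups. The summed level of the 42 keratins was 486, 1808 and 2149 in HSD17B1TG and 290.2, 483 and 1302 in WT mice, with a lowest, median and highest value in FPKM given for each group. *Krt7*, *Krt8*, *Krt18*, *Krt19* and *Krt20*, the simple epithelial keratins, made up 85.0 to 91.8% of that sum in HSD17B1TG and 85.3 to 92.9% in WT mice, so the shares overlapped. In counts, keratins took 0.106 to 0.414% of each HSD17B1TG library and 0.0553 to 0.304% of each WT library, of totals from 14817228 to 23271988 counts. Mitochondrial genes took 1.94 to 7.57% of the HSD17B1TG counts and 2.58 to 3.37% of the WT counts, and their part in the keratin values was not tested. TG1 had the lowest keratin sum among HSD17B1TG mice and WT4 the highest among WT mice, and these neighbours overlapped the other group. In whole tissue, fewer cells of a type and less RNA per cell cannot be told apart.

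**Figure D1:**
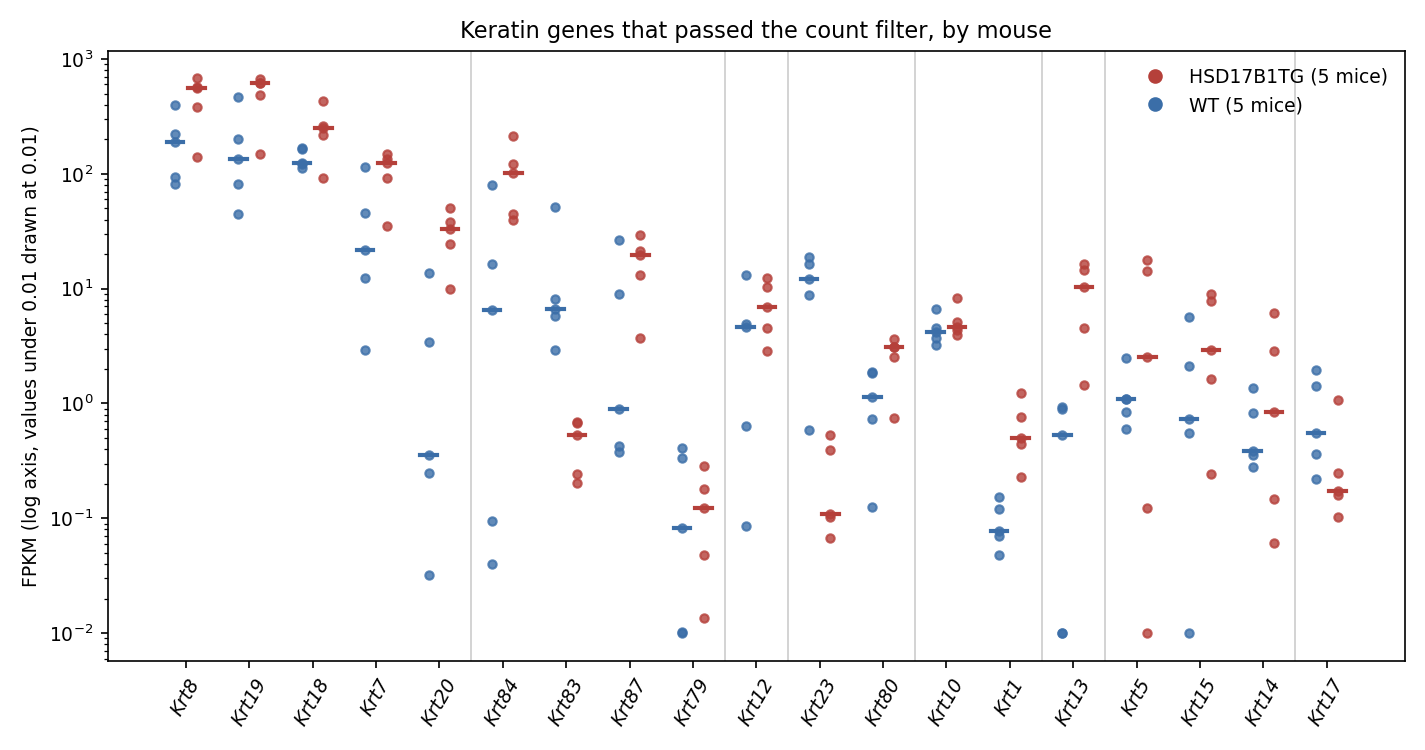
FPKM of the 19 keratin genes that passed the count filter, on a log axis, with 1 point per mouse and a bar at each group's median. Vertical lines separate the classes, in the order simple epithelial, hair follicle and nail, cornea, other, epidermal, mucosal, basal and stress keratins; *Krt23* and *Krt83* sit lower in all 5 HSD17B1TG mice than in any WT mouse, and *Krt13* and *Krt1* higher.

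A keratin was called when the edgeR quasi-likelihood test gave an adjusted p (Benjamini-Hochberg over all 16993 genes tested) under 0.05, the fold was over 2 and the mean FPKM was over 1 in either group. By that rule 1 of the 19 tested keratins rose, *Krt13*, beside 2.16% of all genes tested, and 2 fell, *Krt23* and *Krt83*, beside 2.08% of all genes. DESeq2 was run without the edgeR count filter, on all 29268 genes with all 42 keratins among them. It called the same 3 keratins, beside 3.15% of those genes up and 2.3% down. The DESeq2 shares here and below are thus of a larger set of genes than the edgeR shares. Limma voom with quality weights, on the 16993 filtered genes, called 7 up, beside 6.37%, and the same 2 down, beside 3.91%. *Krt1* passed the adjusted p as well but stayed under the FPKM limit, so 4 of 19 passed on adjusted p alone, beside 6.16% of all genes, and 11 of 19 did by limma voom with quality weights, beside 19.3%. At an unadjusted p under 0.05, 6 of 19 were higher, beside 14.7% of all genes, and 2 were lower, beside 11.4%. The higher count was 3 without WT2, WT3 or WT5, where 0.628 to 0.939% of all genes passed the adjusted p. It was 9 without TG1 or WT4, where 12.1% and 13.8% did. The log2 fold change of HSD17B1TG against WT was positive in 15 and negative in 4 of the 19, with a median of 1.24, whereas 50.2% of all genes were positive and 49.8% negative with a median of 0.00. Scaling by total counts alone moved the median of all genes to -0.17, and the same 15 and 4 keratin signs were counted.

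**Figure D2:**
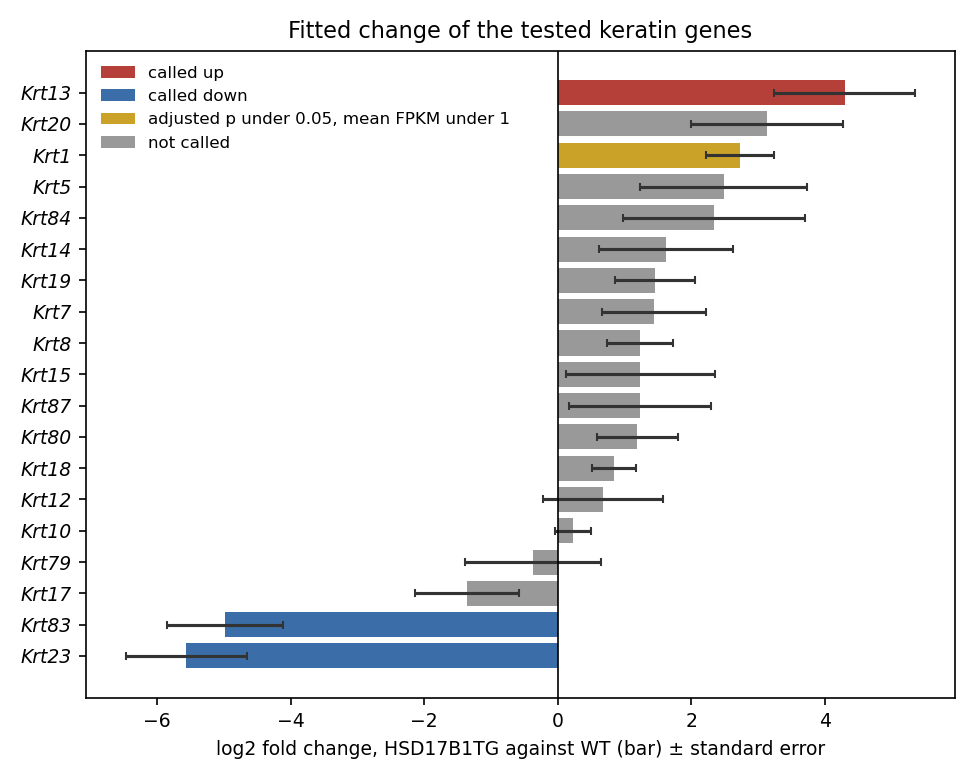
Log2 fold change of HSD17B1TG against WT for the 19 tested keratin genes, drawn as bars with the standard error of the edgeR fit (5 mice per group). *Krt13* is called up at 4.30, *Krt23* and *Krt83* are called down at -5.56 and -4.98, *Krt1* passes the adjusted p only, and the other 15 are not called.

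*Krt23*, an acidic keratin of glandular and mucosal epithelia that spans 99477974 to 99493137 on the minus strand of chromosome 11, fell to near 0 in the transgenic uterus. The FPKM of *Krt23* were 0.103, 0.110, 0.0679, 0.396 and 0.534 in TG1 to TG5 and 12.2, 8.75, 18.7, 0.588 and 16.4 in WT1 to WT5. All HSD17B1TG mice lay below all WT mice, but WT4 stood apart from the other WT mice and only just above TG5. The mean was 0.242 ± 0.210 FPKM in HSD17B1TG and 11.3 ± 7.13 FPKM in WT (SD, n = 5 each), a log2 fold change of -5.56 (SE 0.91, edgeR adjusted p = 0.0177). The call was lost without TG2, where the adjusted p was 0.0501 and 0.318% of all genes were called up and 0.347% down, and it held without each of the other 9 mice.

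*Krt83*, a type II hair keratin at 101485130 to 101491512 on the minus strand of chromosome 15, fell as well. The FPKM of *Krt83* were 0.670, 0.531, 0.692, 0.202 and 0.244 in TG1 to TG5 and 51.5, 5.80, 6.70, 2.92 and 8.06 in WT1 to WT5. WT1 was far above the other WT mice, and WT4, the lowest WT mouse, was still above every HSD17B1TG mouse. The mean was 0.468 ± 0.232 FPKM in HSD17B1TG and 14.99 ± 20.5 FPKM in WT (SD, n = 5 each), a log2 fold change of -4.98 (SE 0.86, edgeR adjusted p = 0.0199). Without WT1 the log2 fold change was -3.66, and the adjusted p rose to 0.0542 without TG2, 0.0531 without TG4 and 0.0534 without TG5. In the reference transcripts, *Krt83* shares 5.17% of its 100-base windows with *Krt81*, *Krt86* and *Krt87*. Reads were paired-end 150 bp and can reach past such a window, so how many were ambiguous is not known. *Krt81* reached at most 0.0384 FPKM and *Krt86* at most 0.829 FPKM, both in WT1.

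*Krt13*, the type I keratin of the suprabasal layers in internal squamous linings such as oesophagus and vagina (100117327 to 100121566, minus strand of chromosome 11), rose. The FPKM of *Krt13* were 1.44, 14.5, 16.4, 10.4 and 4.52 in TG1 to TG5 and 0.536, 0.925, 0, 0.904 and 0 in WT1 to WT5. Every HSD17B1TG mouse was above every WT mouse, with TG1 nearest to the WT mice, and WT3 and WT5 had no count. The mean was 9.46 ± 6.39 FPKM in HSD17B1TG and 0.473 ± 0.459 FPKM in WT (SD, n = 5 each), a log2 fold change of 4.30 (SE 1.06, edgeR adjusted p = 0.0426). The call was close to its threshold. It held without TG1 (adjusted p = 0.0239) and without WT4 (0.0308), and it was lost without TG2 (0.0933), TG3 (0.0532), TG4 (0.0782), TG5 (0.0781), WT1 (0.0830), WT2 (0.0853), WT3 (0.0748) or WT5 (0.0762), while DESeq2 gave an adjusted p of 0.00587. The log2 fold change stayed between 3.96 and 4.66 when 1 mouse was left out.

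*Krt4*, the type II partner of *Krt13* in those linings, was not found at comparable levels. The FPKM of *Krt4* were 0.101, 0, 0.0249, 0 and 0 in TG1 to TG5 and 0.153, 0.0494, 0.0872, 0.0681 and 0.481 in WT1 to WT5. It did not pass the count filter, and the values of both groups were near 0. The log2 ratio of *Krt13* to *Krt4* (count + 0.5 per kb) ran from 3.69 to 10.1 in HSD17B1TG and from -5.20 to 3.93 in WT mice and was not tested, because the counts fell below 10 in some mice. *Krt76* and *Krt78*, the other mucosal keratins, did not pass the filter, and no untested member of the class exceeded 0.481 FPKM (*Krt4* in WT5).

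Promoter sequences are shown for the called genes with a RefSeq promoter entry (*Krt13* and *Krt23*) and for *Krt20*, the simple keratin with the largest fold, so that the letters before the start can be read beside the values. Of the 42 keratins, 26 had an entry, and *Krt83*, *Krt87* and *Krt19* were not among them. Each line holds the 250 bases before the RefSeq start on the gene's own strand, 5′ to 3′ (RefSeq, GRCm38.p6, minus strand of chromosome 11). Capitals mark matches on either strand to a TATA box (TATAAA), an estrogen response half-site (GGTCA), an AP-1 site (TGANTCA), a GC box (GGGCGG) and a CACCC box (CCACCC), which do not overlap one another in these windows.
Krt23 (chr11:99493121-99493370): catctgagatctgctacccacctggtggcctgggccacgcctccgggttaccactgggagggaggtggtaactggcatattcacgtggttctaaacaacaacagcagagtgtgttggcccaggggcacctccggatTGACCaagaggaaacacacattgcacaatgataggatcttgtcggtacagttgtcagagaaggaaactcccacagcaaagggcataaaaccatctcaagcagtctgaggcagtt
Krt13 (chr11:100121567-100121816): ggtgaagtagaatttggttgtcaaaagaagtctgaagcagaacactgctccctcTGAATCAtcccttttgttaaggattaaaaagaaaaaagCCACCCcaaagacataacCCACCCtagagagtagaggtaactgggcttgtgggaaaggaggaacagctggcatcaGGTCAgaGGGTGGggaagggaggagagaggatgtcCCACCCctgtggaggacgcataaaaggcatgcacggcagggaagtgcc
Krt20 (chr11:99438154-99438403): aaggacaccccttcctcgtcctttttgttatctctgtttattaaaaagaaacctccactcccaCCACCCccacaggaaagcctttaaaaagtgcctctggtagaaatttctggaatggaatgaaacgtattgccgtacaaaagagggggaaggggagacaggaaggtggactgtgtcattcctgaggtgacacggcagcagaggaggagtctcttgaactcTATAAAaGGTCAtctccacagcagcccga
The *Krt23* window held 1 match, the half-site letters on the other strand at 114 bases before the start, and 17 of its bases lie inside the first exon of the table's gene model, which starts earlier. The *Krt13* window held 1 half-site, 1 AP-1 match and 4 CACCC boxes. A second RefSeq start of *Krt13*, at 100120577 inside the gene, has a window not shown here that held 2 AP-1 matches and none of the other motifs. The *Krt20* window held a TATA box 29 bases before the start, a half-site 22 bases before it and 1 CACCC box. Over all 32851 promoters of the same length, 35.2% held the half-site, 32.7% the GC box, 28.1% the CACCC box, 12.4% the TATA box and 6.75% the AP-1 letters. Among the 26 keratins matched, 9 held the half-site, 2 the GC box, 10 the CACCC box, 9 the TATA box and 1 the AP-1 letters (*Krt13*). A match describes the letters only and is not a measured site.

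The simple epithelial keratins were higher in most HSD17B1TG uteri than in most WT uteri, but none of these 5 genes was called by edgeR, nor by DESeq2. An unadjusted p under 0.05 was found in 4 of the 5, beside 14.7% of all genes on the higher side, and in 1 without TG5, WT2, WT3 or WT5. The share of all genes at that limit is not given for those fits. In them 0.439 to 0.939% of all genes passed the adjusted p, against 6.16% with all mice. With limma voom and quality weights 4 of the 5 keratins were called up, beside 6.37% of all genes. *Krt8*, the type II chain of the first pair made in simple epithelia, and *Krt19* had the highest levels. The FPKM of *Krt8* were 139, 555, 571, 383 and 676 in TG1 to TG5 and 222, 189, 82.0, 400.3 and 94.5 in WT1 to WT5. TG2, TG3 and TG5 were above all WT mice, TG1 and TG4 lay within the WT range, and WT4 was above TG1 and TG4. The mean was 465 ± 210.3 FPKM in HSD17B1TG and 197 ± 128 FPKM in WT (SD, n = 5 each), a log2 fold change of 1.24 (SE 0.50, edgeR adjusted p = 0.146). *Krt8* shares 17.1% of its 100-base windows with *Krt8-ps* and the overlapping *Gm36026*, so its count is less certain than those of its partners.

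*Krt18* is the type I partner of *Krt8*. The FPKM of *Krt18* were 92.8, 216, 259, 251 and 429 in TG1 to TG5 and 166, 113, 122, 169 and 124 in WT1 to WT5. WT mice were close together, TG1 was below all of them and the other 4 HSD17B1TG mice were above all of them. Its log2 fold change was 0.85 (SE 0.33, edgeR adjusted p = 0.131). Without TG1 it was 1.06 with an adjusted p of 0.0221, which passed as a call when 4.42% of all genes were called up. Without TG5 it was 0.56 with an adjusted p of 0.282, when 0.219% of all genes were called up.

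*Krt19*, the smallest keratin, and *Krt7*, its usual partner in glands and ducts, ranked the HSD17B1TG mice in the same order. The FPKM of *Krt19* were 149.9, 618, 619, 488 and 670.5 in TG1 to TG5 and 201, 135, 45.1, 471 and 81.0 in WT1 to WT5. The FPKM of *Krt7* were 34.8, 124, 135, 92.8 and 147 in TG1 to TG5 and 45.5, 12.4, 2.89, 115 and 21.8 in WT1 to WT5. WT4 was the highest and WT3 the lowest WT mouse for both, and TG1 was the lowest HSD17B1TG mouse for both. Fitted log2 fold changes were 1.45 for *Krt19* (SE 0.60, edgeR adjusted p = 0.156) and 1.44 for *Krt7* (SE 0.78, edgeR adjusted p = 0.267). Without WT4, *Krt19* (log2 fold change 2.14, adjusted p = 0.0266) and *Krt8* (1.66, 0.0449) were called up, as was *Krt20* (4.89, 0.0160), and 5.12% of all genes were then called up. For *Krt7* the log2 fold change without WT4 was 2.37, with an adjusted p of 0.0508.

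*Krt20*, a keratin of intestinal surface cells and of the umbrella cells of the bladder, had the largest fold among the simple keratins. The FPKM of *Krt20* were 9.94, 24.6, 33.1, 37.9 and 50.7 in TG1 to TG5 and 3.44, 0.246, 0.0322, 13.8 and 0.355 in WT1 to WT5. Of the HSD17B1TG mice, 4 were above all WT mice, and TG1 was passed by WT4, which stood apart from the other WT mice. The mean was 31.2 ± 15.2 FPKM in HSD17B1TG and 3.57 ± 5.88 FPKM in WT (SD, n = 5 each), and the log2 fold change was 3.13 (SE 1.14, edgeR adjusted p = 0.114), with an adjusted p of 0.0596 by DESeq2. It was called by limma voom with quality weights (log2 fold change 5.59, adjusted p = 0.00645) and by limma on log2(FPKM + 1) (3.47, 0.0268), where 2.45% of all genes were called up, and by limma on log2(FPKM + 0.1) (4.78, 0.0346), where 2.9% were.

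Hair and nail keratins made up 3.99 to 13.03% of the keratin sum in HSD17B1TG mice, most of it *Krt84*, and 1.65 to 9.37% in WT mice, where *Krt83* was the largest part in WT1, WT2 and WT3. *Krt84* is a type II keratin known from nail and from the papillae of the tongue. The FPKM of *Krt84* were 44.4, 213, 101, 39.7 and 121 in TG1 to TG5 and 6.46, 0.0399, 0.0939, 79.8 and 16.3 in WT1 to WT5. All HSD17B1TG mice were at or above 39.7 FPKM, whereas WT2 and WT3 were near 0 and WT4 was above TG1 and TG4. Its share of the keratin sum was 2.91 to 11.8% in HSD17B1TG and 0.00825 to 6.13% in WT mice. For *Krt84* the log2 fold change was 2.34 (SE 1.36, edgeR adjusted p = 0.303), and it was 4.17 without WT4 with an adjusted p of 0.0698. *Krt84* shares no 100-base window with another gene.

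The FPKM of *Krt87*, a hair keratin near *Krt83* in the cluster, were 3.72, 21.3, 29.2, 13.2 and 19.5 in TG1 to TG5 and 9.03, 0.901, 0.381, 26.5 and 0.429 in WT1 to WT5. WT4 was above all HSD17B1TG mice but TG3, and WT2, WT3 and WT5 were under 1 FPKM. Its log2 fold change was 1.23 (SE 1.06, edgeR adjusted p = 0.503), and 2.68 without WT4, with an adjusted p of 0.102. *Krt84* and *Krt87* were called up by limma voom with quality weights, with adjusted p of 0.0152 and 0.0255. *Krt87* shares 10.97% of its 100-base windows with *Krt81*, *Krt83*, *Krt86* and *Gm49425*. Of the 16 hair and nail keratins, 12 did not pass the filter and *Krt79* passed at no more than 0.411 FPKM (log2 fold change -0.37, adjusted p = 0.849).

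**Figure D3:**
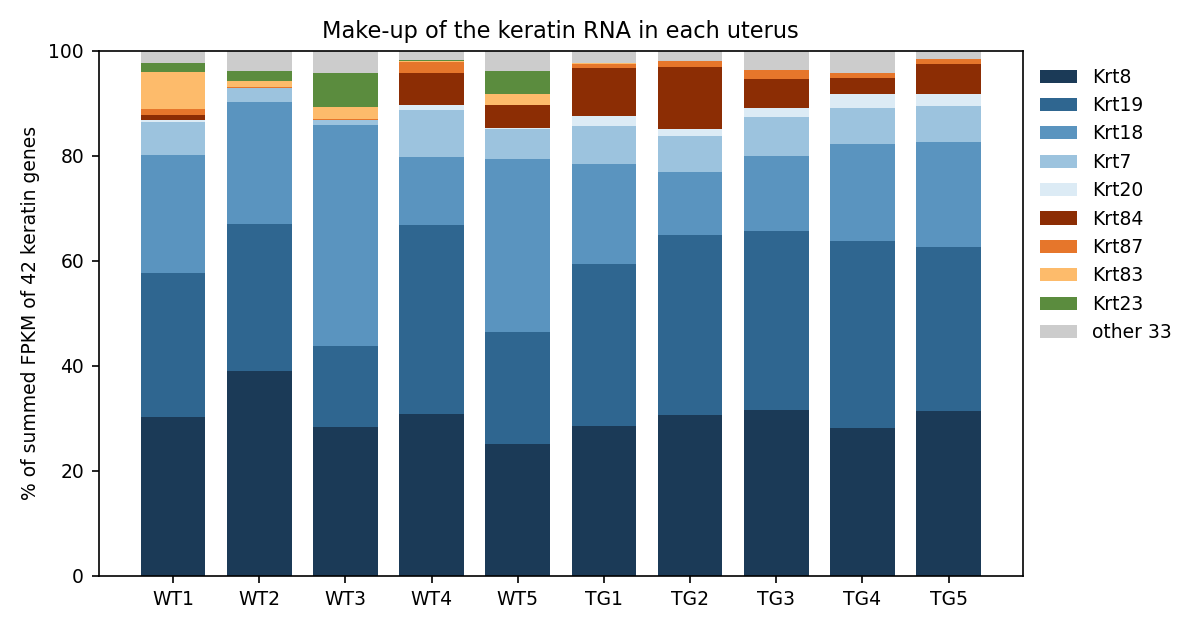
Share of each keratin in the summed FPKM of the 42 keratin genes, in % by mouse, as stacked bars for 5 WT and 5 HSD17B1TG mice. *Krt8*, *Krt18* and *Krt19* fill most of every bar, *Krt84* takes 2.91 to 11.8% in the HSD17B1TG mice, and *Krt83* and *Krt23* are visible in WT mice other than WT4.

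*Krt12*, the keratin of the corneal epithelium, was measured in all 10 mice. The FPKM of *Krt12* were 2.87, 4.56, 6.97, 10.3 and 12.4 in TG1 to TG5 and 4.88, 0.0853, 0.636, 13.1 and 4.61 in WT1 to WT5. The groups overlapped throughout, and the log2 fold change was 0.68 (SE 0.90, edgeR adjusted p = 0.678), or 1.53 without WT4. In the reference, 29.0% of its 100-base windows are shared with *A830036E02Rik* on the other strand. The strand setting of the counting is not given, so how many reads there were ambiguous between the 2 genes is not known.

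Keratins of stratified epithelium were low in both groups. *Krt5* and *Krt14* are the pair of the basal layer. The FPKM of *Krt5* were 0.122, 2.56, 17.6, 14.4 and 0 in TG1 to TG5 and 0.852, 2.49, 1.10, 1.10 and 0.600 in WT1 to WT5. The FPKM of *Krt14* were 0.0610, 0.850, 6.11, 2.89 and 0.146 in TG1 to TG5 and 0.833, 1.38, 0.353, 0.386 and 0.278 in WT1 to WT5. TG3 and TG4 were the highest mice for both and TG1 and TG5 the lowest, so HSD17B1TG mice spread on both sides of the WT mice. Fitted log2 fold changes were 2.48 for *Krt5* (SE 1.25, edgeR adjusted p = 0.236) and 1.62 for *Krt14* (SE 1.00, edgeR adjusted p = 0.334), and without TG3 they were 1.78 and 0.59. That of *Krt5* was 0.86 by limma voom with quality weights and 0.52 by limma on log2(FPKM + 0.1). The FPKM of *Krt15*, another basal keratin, were 0.243, 2.93, 9.02, 7.83 and 1.64 in TG1 to TG5 and 0.737, 5.69, 2.14, 0.548 and 0 in WT1 to WT5. TG3 and TG4 were again the highest, WT2 came next, and the log2 fold change was 1.24 (SE 1.12, edgeR adjusted p = 0.522), which became 2.33 without WT2 and 0.78 without TG3.

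*Krt1*, the type II keratin of the differentiated epidermis, passed the adjusted p at a low level. The FPKM of *Krt1* were 0.231, 0.443, 0.506, 0.759 and 1.24 in TG1 to TG5 and 0.120, 0.0477, 0.0702, 0.154 and 0.0774 in WT1 to WT5. All HSD17B1TG mice lay above all WT mice, and only TG5 exceeded 1 FPKM. The log2 fold change was 2.73 (SE 0.51, edgeR adjusted p = 0.0227), and the adjusted p passed 0.05 without TG2 (0.0522), TG4 (0.0541), TG5 (0.0534), WT2 (0.0601), WT3 (0.0573) or WT5 (0.0654). The FPKM of its partner *Krt10* were 3.96, 4.60, 4.40, 5.10 and 8.24 in TG1 to TG5 and 4.19, 3.24, 6.63, 4.58 and 3.74 in WT1 to WT5. The groups overlapped apart from TG5, and the log2 fold change was 0.23 (SE 0.27, edgeR adjusted p = 0.637). *Krt77* and *Krt2*, the other epidermal keratins, did not pass the filter; *Krt77*, named after its values were seen, had counts in all 5 HSD17B1TG mice at no more than 0.0846 FPKM and none in 4 of 5 WT mice.

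Stress and wound keratins were close to 0. The FPKM of *Krt6a* were 0.0222, 0.0951, 0.198, 0.539 and 0 in TG1 to TG5 and 0, 0, 0, 0.0601 and 0 in WT1 to WT5. The FPKM of *Krt16*, its partner in wounded and activated epidermis, were 0.0343, 0, 0.136, 0 and 0 in TG1 to TG5 and 0, 0.0673, 0, 0.0928 and 0 in WT1 to WT5. Neither gene passed the filter, and both were listed at 0 in most WT mice. Shared 100-base windows made up 42.9% of *Krt6a* (mostly other loci of its family, *Krt6b* and *Krt5* included) and 24.3% of *Krt16* (*Krt14* and *Gm11597*), so the split of these few reads between genes is uncertain. *Krt6b* reached 1.10 FPKM in WT4, and *Krt17*, the only member of the class that was tested, reached 1.97 FPKM in WT2 and had a log2 fold change of -1.35 (SE 0.78, edgeR adjusted p = 0.299). The class of other keratins holds 5 members placed in no other class, of which *Krt23* is given above. The FPKM of *Krt80*, also of this class, were 0.747, 2.55, 3.08, 3.11 and 3.63 in TG1 to TG5 and 1.86, 1.14, 0.126, 0.735 and 1.86 in WT1 to WT5. TG1 was within the WT range, the other 4 HSD17B1TG mice were above it, and the log2 fold change was 1.19 (SE 0.61, edgeR adjusted p = 0.241). The remaining 3 of that class reached at most 0.296 FPKM (*Krt90* in TG1).

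Beside the members called, the FPKM of the groups did not overlap in 2 tested keratins with HSD17B1TG above (*Krt13* and *Krt1*), next to 4.04% of all genes tested, and in 2 with HSD17B1TG below (*Krt23* and *Krt83*), next to 2.65%. The order of mice within a group differed between keratins. Of the 16 keratins over 1 FPKM, TG1 was the lowest HSD17B1TG mouse in 12, and TG5 was the highest in 9 and TG3 in 6. WT4 was the highest WT mouse in 8 and the lowest in 2, which were *Krt23* and *Krt83*. WT3 was the lowest WT mouse in 7 and the highest in 2, and WT2 was the highest in 4 and the lowest in 4.

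The ratio of the type I to the type II chain within a mouse does not depend on the library scaling, and it was tested for the 2 of 6 pairs with at least 10 counts of both genes in every mouse. The log2 ratio of *Krt18* to *Krt8* was -0.58, -1.36, -1.14, -0.61 and -0.66 in TG1 to TG5 and -0.42, -0.74, 0.57, -1.25 and 0.39 in WT1 to WT5. WT3 and WT5 had more *Krt18* than *Krt8* per length, and all other mice had less. The mean was -0.87 ± 0.36 in HSD17B1TG and -0.29 ± 0.77 in WT (SD, n = 5 each), a difference of -0.58 with a two-sided exact permutation p of 0.175 (0.349 adjusted over the 2 pairs). With 1 mouse left out, the difference ran from -0.82 without WT4 to -0.37 without WT3. The exact permutation p of these fits, not adjusted over the pairs, ran from 0.0476 to 0.365.

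The log2 ratio of *Krt19* to *Krt7* was 2.11, 2.32, 2.20, 2.40 and 2.18 in TG1 to TG5 and 2.14, 3.45, 3.96, 2.03 and 1.90 in WT1 to WT5. The HSD17B1TG mice were close together, and WT2 and WT3 stood above all of them. The mean was 2.24 ± 0.12 in HSD17B1TG and 2.70 ± 0.94 in WT (SD, n = 5 each), a difference of -0.46 with a two-sided exact permutation p of 0.437 (0.437 adjusted). The log2 ratio of *Krt10* to *Krt1* was 4.07, 3.36, 3.11, 2.74 and 2.73 in TG1 to TG5 and 5.08, 5.92, 6.43, 4.85 and 5.50 in WT1 to WT5. All HSD17B1TG mice were below all WT mice, a difference of -2.35, with counts of *Krt1* as low as 4, and it was not tested. The ratios of *Krt14* to *Krt5* (difference 0.46) and *Krt16* to *Krt6a* (-2.40) rest on counts of 0 in some mice, and the groups overlapped in both.

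**Figure D4:**
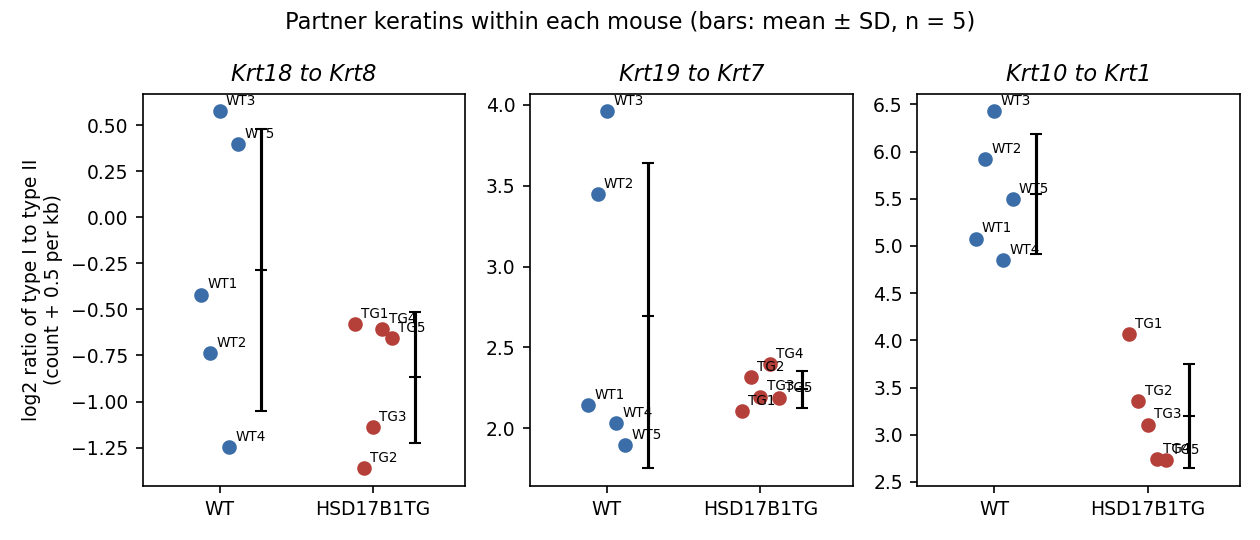
Log2 ratio of the type I to the type II keratin, from (count + 0.5) per kb, for 3 partner pairs in each mouse, with the mean ± SD of 5 mice per group beside the points; the y axes differ. The *Krt19* to *Krt7* ratio spans 2.11 to 2.40 in HSD17B1TG and 1.90 to 3.96 in WT mice, and the *Krt10* to *Krt1* ratio does not overlap between groups.

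Other epithelial genes had fold changes of the same sign as the simple keratins. Of 16 epithelial markers that are not keratins (*Epcam*, *Cdh1*, claudins, *Esrp1* and others), all 16 had a positive log2 fold change, with a median of 1.17. An unadjusted p under 0.05 was found in 11, beside 14.7% of all genes, and in 6 without TG5 or WT5. The share of all genes at that limit is not given for those fits. All genes past the adjusted p fell from 6.16% to 0.439% without TG5 and 0.684% without WT5. By edgeR 1 of the 16 markers was called up (*Spint2*), beside 2.16% of all genes. That call was lost in 7 of the 10 fits without 1 mouse (TG2, TG4, TG5, WT1, WT2, WT3 or WT5). DESeq2 called 5 of the markers up, beside 3.15%, and limma voom with quality weights 10, beside 6.37%. Their summed level was 517, 1396 and 2303 FPKM (lowest, median, highest) in HSD17B1TG and 350.2, 544 and 933 FPKM in WT mice, with TG1 lowest and TG5 highest, and WT5 lowest and WT4 highest. Set against the mean log2(FPKM + 0.1) of these 16 genes in the same mouse, *Krt8* was 2.97 to 3.33 log2 units higher in HSD17B1TG and 2.71 to 3.55 higher in WT mice, a difference of group means of 0.13. The same difference was -0.46 for *Krt18*, 0.56 for *Krt19* and 1.01 for *Krt7*, with overlapping groups in each. That of *Krt7* was 0.48 without WT3 and 1.44 without WT4. For *Krt20* the difference with all mice was 3.61. Its values ran from -1.16 to -0.28 in HSD17B1TG and from -6.57 to -1.29 in WT mice and did not overlap. With 1 added to the FPKM in place of 0.1, the *Krt20* difference was 2.36, and WT3 had 1 count of this gene. The same comparison was added for 6 further keratins after their values were seen. It gave 3.12 for *Krt13*, -5.82 for *Krt23* and -5.22 for *Krt83*, each without overlap, and 3.68 for *Krt84*, 1.50 for *Krt87* and 0.48 for *Krt12*, each with overlap. TG2 to TG5 had no WT mouse at the same mean of the 16 markers, and none of these differences was tested.

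**Figure D5:**
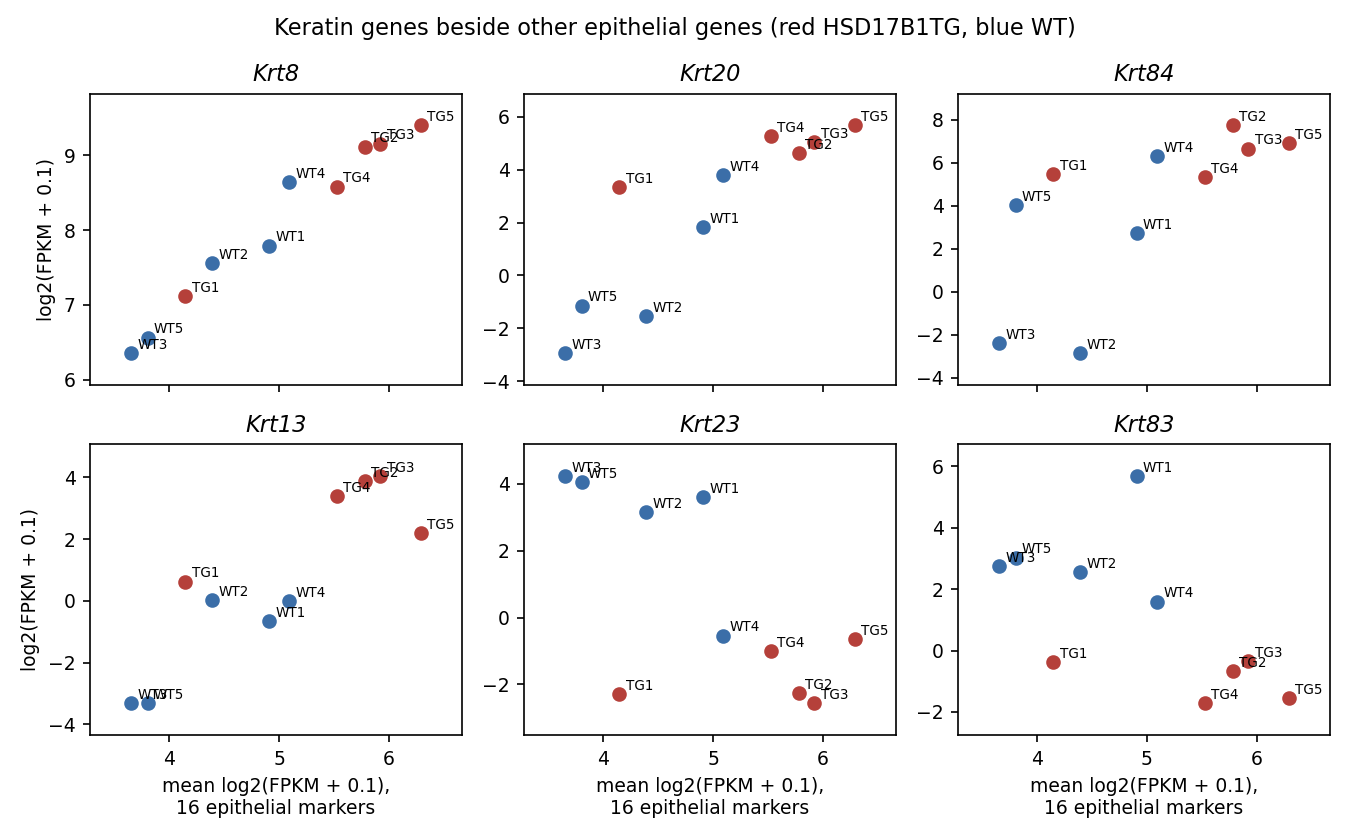
Log2(FPKM + 0.1) of 6 keratins in each mouse against the mean of the same value over 16 epithelial markers, with HSD17B1TG in red and WT in blue. *Krt8* of both groups lies along 1 band, TG1 is the only HSD17B1TG mouse within the WT range of the epithelial mean (3.65 to 5.09), and TG2 to TG5 lie to the right of all WT mice (5.52 to 6.29).

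Listed markers of a stratified squamous lining differed widely in level. All single genes given here from the cell type lists were named after their values were seen. *Trp63*, the master factor of basal cells, was at most 0.251 FPKM in any mouse, and the desmosomal cadherins *Dsg3* and *Dsc3* were at most 0.207 and 0.0301 FPKM. *Lamb3*, a laminin chain of the basement membrane, was at 8.54 to 30.7 FPKM in HSD17B1TG and 0.263 to 8.58 FPKM in WT mice, and *Calml3*, a calmodulin-like protein of epithelia, at 3.25 to 20.5 and 0.550 to 4.18 FPKM. *Sfn*, an epithelial 14-3-3 protein, was at 16.5 to 98.4 and 0.692 to 76.5 FPKM, and the groups overlapped in all 3. Of the 14 listed squamous markers in the table, edgeR tested 9 and called none, with 4 at an unadjusted p under 0.05, all higher, beside 14.7% of all genes. DESeq2 called 3 up (*Calml3*, *Lamb3* and *Ly6d*), beside 3.15%, and limma voom with quality weights 3 (*Calml3*, *Lamb3* and *Sfn*), beside 6.37%. The squamous markers summed to 35.8 to 135 FPKM in HSD17B1TG and 8.63 to 92.7 FPKM in WT mice, overlapping. Of the 9 tested, 5 were positive and 4 negative. Skin and hair markers summed to 1.11 to 3.69 FPKM in HSD17B1TG and 1.59 to 3.67 FPKM in WT mice. The oviduct list summed higher in every HSD17B1TG mouse (16.5 to 21.5 FPKM) than in any WT mouse (13.6 to 15.7 FPKM), but its members went both ways. Of its 5 tested members 3 were positive and 2 negative, and *Pax8* was the largest part (mean 9.87 and 6.38 FPKM). An unadjusted p under 0.05 was found in 1, which was higher, beside 14.7% of all genes. No member was called by edgeR, DESeq2 or limma voom. *Foxj1*, the factor of ciliated cells, did not pass the filter and was lower in every HSD17B1TG mouse (at most 0.0735 FPKM) than in any WT mouse (0.129 to 1.02 FPKM). The summed mesothelium markers, from the lining of the outer surface that also makes simple keratins, overlapped (21.9 to 100.2 and 18.4 to 47.2 FPKM). Of the 8 tested, 7 were positive with a median log2 fold change of 1.47. An unadjusted p under 0.05 was found in 4, all higher, beside 14.7% of all genes. That count was 0 without WT1 and 5 without WT4, where 1.73% and 13.8% of all genes passed the adjusted p. By edgeR none was called. DESeq2 called *Msln* and *Nkain4* up, beside 3.15% of all genes, and limma voom with quality weights called 3 up, beside 6.37%. Smooth muscle markers were highest in TG1 (7277 FPKM) and, among WT mice, in WT4 (5740 FPKM), and the groups overlapped. At an unadjusted p under 0.05, 7 of 10 endometrial stroma markers were lower, beside 11.4% of all genes. DESeq2 called 6 of them down, beside 2.3% of all genes, and edgeR 5, beside 2.08%. Without 1 mouse that count ran from 0 to 6, with 0 without TG5 (beside 0.156% of all genes called down in that fit), 1 without TG2 (0.347%) and 2 without TG4, WT2, WT3 or WT5 (0.325 to 0.452%). The summed leucocyte markers overlapped (76.1 to 102.1 and 59.7 to 128 FPKM), with 7 of 8 negative. At an unadjusted p under 0.05, 3 were lower, beside 11.4% of all genes, and 1 was higher, beside 14.7%. By edgeR 1 was called up, *Laptm5* (log2 fold change 1.28, edgeR adjusted p = 0.0312), beside 2.16% of all genes. Its call was lost without TG2, TG4, TG5, WT2, WT3 or WT5. DESeq2 also called *Ptprc* and *Cd52* down, beside 2.3% of all genes. The part of these cells in the keratin values was not tested.

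Genes that anchor or modify keratin filaments were described from a list of 19, of which 18 were tested. None was called by edgeR, where 8 had an unadjusted p under 0.05, all higher, beside 14.7% of all genes. That count was 5 without TG2, TG3, WT2, WT3 or WT5, where 0.628 to 7.9% of all genes passed the adjusted p. It was 12 without WT4, where 13.8% did. DESeq2 called 3 up, beside 3.15%, and limma voom with quality weights 7, beside 6.37%. By sign, 15 were positive and 3 negative, and the median log2 fold change was 0.95. Those with the smallest p were *Pkp2* (log2 fold change 1.08, edgeR adjusted p = 0.0716) and *Pkp3* (1.19, 0.0868), which are desmosomal plaque proteins, and *Itgb4* (1.18, 0.0907), the integrin of hemidesmosomes. Of 16 other intermediate filament genes, 10 were tested, 5 positive and 5 negative with a median of -0.10, and edgeR called none, with 3 at an unadjusted p under 0.05, all lower, beside 11.4% of all genes. DESeq2 and limma voom with quality weights each called *Nes* and *Vim* down, beside 2.3% and 3.91% of all genes. The smallest p belonged to *Nes* (-1.10, edgeR adjusted p = 0.0832), *Vim* (-1.37, 0.102), the filament protein of stromal cells, and *Bfsp1* (-0.88, 0.139). *Vim* was 28.6 to 103 FPKM in HSD17B1TG and 68.1 to 320 FPKM in WT mice, with overlap.

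Of 17 transcription factors known to act on keratin or epithelial genes, 14 were tested, 11 positive and 3 negative with a median log2 fold change of 0.78. None was called by edgeR, where 7 had an unadjusted p under 0.05, all higher, beside 14.7% of all genes. DESeq2 and limma voom with quality weights each called 5 up (*Elf3*, *Grhl3*, *Klf4*, *Ovol2* and *Sox9*), beside 3.15% and 6.37%. *Grhl3*, a factor of surface epithelium, was the nearest (log2 fold change 3.92, edgeR adjusted p = 0.0503). It was followed by *Sox9*, a factor of glandular epithelium (1.47, 0.0742), and *Elf3*, an epithelial ETS factor (2.37, 0.0804). The FPKM of *Elf3* were 238, 576, 484, 425 and 795 in TG1 to TG5 and 135, 32.3, 15.2, 282 and 25.1 in WT1 to WT5. TG1 was the lowest HSD17B1TG mouse and WT4 the highest WT mouse for *Elf3*, as for the simple keratins.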

How the data were processed

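The uterus of 5 HSD17B1TG and 5 WT mice was sequenced in the study (NovaSeq, paired-end 150 bp), and reads were mapped by the authors with HISAT2 (2.0.5 in the submitters' processing notes) to the mouse genome with Ensembl 94. The counting program, strand setting and treatment of multiply mapped reads were not given in the sources used here. The authors deposited raw counts and FPKM per gene and mouse, and the deposited FPKM use the gene length of the same table. A further 10 columns of size-factor-scaled values were not used, nor were the authors' own log2 fold changes, p-values and term enrichments.

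Counts were tested in edgeR 4.0.16 (R 4.3.3; filterByExpr, TMM, glmQLFTest, Benjamini-Hochberg), which was checked on simulated data. DESeq2 1.42.0, limma 3.58.1, other scalings and filters, and fits without each mouse were the alternatives. Labels name no separate litters or batches, so p-values measure the spread between these mice. Partner ratios were tested by an exact permutation over 252 assignments, whose smallest p is 0.00794. Library totals ran from 14817228 to 23271988 counts. Values by mouse were given for keratins that passed the filter with a mean over 1 FPKM, for called members and for the chains of the 6 pairs, and the 3 genes of smallest p were named among linkers, other intermediate filaments and transcription factors. Genes of the cell type lists were named after their values were seen. Overlaps and shared windows used GENCODE M21, which is on the same build. The members and lists were chosen with earlier results of these data known.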

Additional observations from a re-analysis of the deposited data

Results flagged for a closer look

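Single mice stood far from the other 4 of their group in 12 of 52 group values searched. The rule used marks about 1 in 20 groups by chance when values are normally distributed, and since these FPKM are skewed and some are tied at 0, the 12 cannot be read against that rate. WT4 was one of them for *Krt84* at 79.8 FPKM, for *Krt20* at 13.8 FPKM and for *Krt6a* at 0.0601 FPKM, with the other WT mice at most 16.3, 3.44 and 0 FPKM. WT1 was alone for *Krt83* at 51.5 FPKM, with the others at most 8.06 FPKM, and the fall of *Krt83* was called without it. WT2 stood apart for *Krt5* at 2.49 FPKM and for the log2 ratio of *Krt16* to *Krt6a* at 2.95. WT5 stood apart for *Krt4* at 0.481 FPKM. Among HSD17B1TG mice, TG5 was high for *Krt10* at 8.24 FPKM and for the log2 ratio of *Krt14* to *Krt5* at 3.49, where *Krt5* had no count. TG1 was high for *Krt4* at 0.101 FPKM and low for the log2 ratio of *Krt13* to *Krt4* at 3.69. TG3 was high for *Krt16* at 0.136 FPKM. The values of *Krt4*, *Krt6a* and *Krt16* are a few counts each.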

How the results depend on the processing

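The 2 keratins called down were the same under DESeq2, limma voom, both other scalings, both other count filters, both limma fits on log2 FPKM and no FPKM limit. The count of keratins called up was 7 with limma voom and quality weights, where 6.37% of all genes were called up, 2 with no limit on FPKM (*Krt13* and *Krt1*) and 2 by limma on log2(FPKM + 1) and on log2(FPKM + 0.1) (*Krt13* and *Krt20* in both, counts added after seeing the data), and it stayed at 1 with DESeq2, both other scalings and both other count filters. On adjusted p alone the count was 11 with limma voom and quality weights, where 19.3% of all genes passed. With 1 mouse left out, 0 to 4 keratins were called up, 0 to 2 down, and 0 to 7 passed on adjusted p alone, while the shares of all genes in the same fits ran from 0.219 to 5.12% up, 0.156 to 3.84% down and 0.439 to 13.8% on adjusted p alone. Without TG2 edgeR called none, with 7 of 20 tested at an unadjusted p under 0.05. In that fit 0.74% of all genes passed the adjusted p, and their share at the unadjusted limit is not given. The log2 ratio of *Krt18* to *Krt8* differed by -0.82 to -0.37 between groups, and that of *Krt14* to *Krt5* turned from 0.46 to -0.55 without TG5 (range -0.55 to 0.90), because *Krt5* has no count in TG5. Over all genes, total counts alone gave 286 up and 494 down calls, against 367 and 354 with TMM. No paired analysis was possible because replicate numbers follow the accession order and the labels do not explain the numbers in the sample titles. *Krt4* and *Krt6a*, with a few counts per mouse, did not pass the count filter. With no filter their unadjusted p were 0.0350 and 0.0237 by edgeR and 0.0246 and 0.0190 by DESeq2, and neither passed after adjustment (0.225 and 0.187 by edgeR, 0.119 and 0.0992 by DESeq2).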
